A study of Drosophila melanogaster with 2 samples.

Results

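The Sin3A peaks of the X chromosome were taken from a ChIP-seq peak list of Drosophila melanogaster embryos. A peak was a member when the list placed it on the sequence X of the BDGP5 build, and 731 of the 4046 peaks met that rule. Membership rests on position and not on any measured value. The 700 peaks of 2L, the 775 of 3L and the 991 of 3R served as the autosomal reference, 2466 peaks in all. The autosomal arm 2R was not part of this reference and is not described on its own. The ChIP sample was chromatin of embryos aged 0 to 12 h, crosslinked in 1.8% formaldehyde and precipitated with an antibody against Sin3A. Its title joins replicates 1 and 2. The other sample of the series is input chromatin of embryos of the same age, and was not analysed here. The samples are labelled as untreated; the growth protocol names iso1 (y; bw cn sp) or transgenic flies without saying which were used here, and the sex of the embryos is not given.

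Sin3A is the scaffold of a corepressor complex that brings the histone deacetylase Rpd3 to chromatin, and it is known to bind near the start sites of genes. The X differs from the autosomes in flies because males carry a single copy. The dosage compensation complex, known by its male-specific lethal (MSL) proteins, binds the male X, acetylates histone H4 along transcribed genes and raises their expression.

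X peaks were narrower than peaks of 2L, 3L and 3R, somewhat higher in score and about as dense. The median X peak was 838 bp wide (95% interval 804 to 871), against 964 bp on 2L (914 to 1010), 969 bp on 3L (942 to 1031) and 1059 bp on 3R (1025 to 1098). The median score, the authors' own value for each peak, was 308 on the X (280 to 337), against 247 on 2L (225 to 277), 279.6 on 3L (251 to 306) and 273 on 3R (249 to 307). The X held 32.6 peaks per Mb between its first and last peak (exact Poisson interval 30.3 to 35.1), against 31.3 on 2L (29.0 to 33.7), 32.9 on 3L (30.6 to 35.3) and 35.6 on 3R (33.4 to 37.8). The interval of X width lay below those of the 3 reference arms, that of X score lay above that of 2L only, and those of density overlapped on these 4 arms. X peaks covered 3.03% of the span of the X, against 3.42% of 2L, 3.57% of 3L and 4.11% of 3R. These intervals treat peaks as independent and cover counting error only. With 1 list there is no replicate error, the read depth is unknown, and the differences described here carry no p-value.

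The peaks ran along the length of the X. The first spanned positions 23715 to 24046 (332 bp, score 76.14), and the last spanned 22414685 to 22415776 (1092 bp, score 766.57). By sections of 5 Mb, the X held 158 peaks from 0 to 5 Mb, 184 from 5 to 10 Mb, 155 from 10 to 15 Mb, 194 from 15 to 20 Mb and 40 from 20 Mb to the last peak. The last section, next to the centromere, was thus the sparsest, with 16.6 peaks per Mb, against 31.0 to 38.8 in the other X sections and 24.4 to 39.4 in the 16 sections of 2L, 3L and 3R. The complete 1 Mb bin with the most X peaks lay from 15 to 16 Mb and held 52, with a median score of 239. The bin with the fewest lay from 20 to 21 Mb and held 17, with a median score of 679, the highest of the 22 complete X bins. The median scores of the 72 complete reference bins ran from 149 to 482, so these 17 peaks were, by their median, stronger than those of each reference bin. That median rests on 17 peaks, is the highest of 22 and carries no interval. The reference bins held 6 to 59 peaks, so 17 was few among the X bins only.

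**Figure D1:**
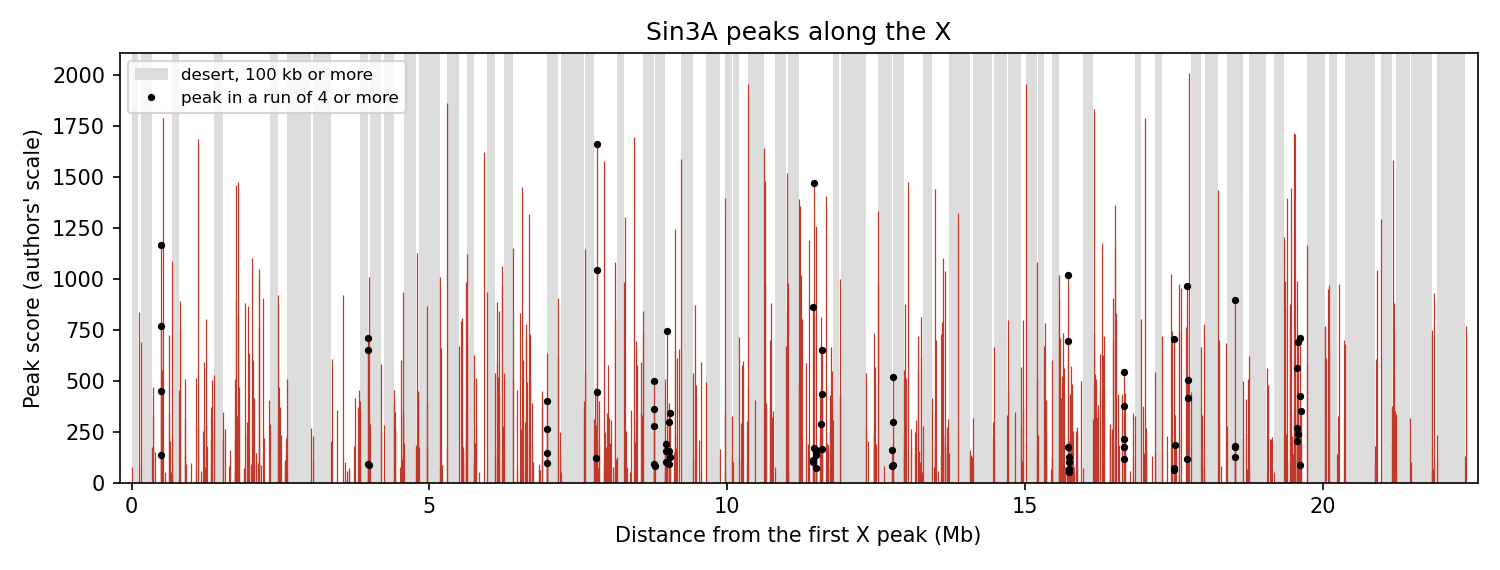
Score of each of the 731 Sin3A peaks of the X (authors' scale, vertical lines) by distance from the first X peak in Mb; grey bands are stretches of 100 kb or more without a peak and black points mark peaks in runs of 4 or more. Peaks thin out and grey bands widen at the right end, where the section from 20 Mb held 40 peaks and no run.

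The 10 strongest X peaks scored from 1697.25 to 2008.74. Of these, 6 lay between 15 and 20 Mb, 2 between 5 and 10 Mb, and 1 each in the sections from 0 to 5 Mb and from 10 to 15 Mb. The strongest peak of the X, 1592 bp wide, spanned 17780178 to 17781769, and its nearest neighbour was 20.9 kb away. The second, at 15032900 to 15033995, scored 1956.31, was 1096 bp wide and stood 53.7 kb from its nearest neighbour. Next, a peak at 10366560 to 10369347, scored 1956.01 and was 2788 bp wide. These 2 peaks thus had nearly the same score and widths that differed by more than 1500 bp. The strongest peak from 5 to 10 Mb spanned 5313706 to 5315284 (score 1862.28) and that from 0 to 5 Mb spanned 548811 to 550825 (score 1788.39). In the sparse section from 20 Mb on, the strongest peak spanned 21194160 to 21195837 and scored 1585.29, rank 16 on the X. None of the 10 strongest peaks lay in a run of 4 or more, and 6 of the 10 had no neighbour within 5 kb. Among all X peaks, 11.1% lay in such runs and 41.7% had no neighbour within 5 kb. With 10 peaks, these counts do not set the strongest apart from the rest.

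The weakest X peaks lay at the floor of the list, whose lowest score was 50.05. A peak of 424 bp at 13297758 to 13298181 scored 50.08, one of 872 bp at 580357 to 581228 scored 50.46, and one of 699 bp at 9977041 to 9977739 scored 51.02. Weak peaks were not a larger part of the X list than of the others. Among the reference peaks a score below 72.63 marks the lowest of 10 equal groups. That range held 7.93% of X peaks (58 peaks, 95% interval 6.08 to 10.1), against 10.3% on 2L, 9.16% on 3L and 10.5% on 3R. The highest of these groups, with scores of at least 882.71, held 13.0% of X peaks (95 peaks, interval 10.6 to 15.7), against 7.71% on 2L (5.85 to 9.95), 11.0% on 3L (8.86 to 13.4) and 10.9% on 3R (9.03 to 13.0). The X had the largest share of the 4 arms, but its interval overlapped those of 3L and 3R.

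The difference in width was seen at both ends of the scale. Peaks narrower than 500 bp made up 10.5% of the X (77 peaks, interval 8.40 to 13.0), against 4.14% of 2L (29 peaks, 2.79 to 5.90), 3.23% of 3L (25 peaks, 2.10 to 4.73) and 2.52% of 3R (25 peaks, 1.64 to 3.70). Peaks of 1500 bp or more made up 8.76% of the X (64 peaks, interval 6.81 to 11.0), against 17.4% of 2L (14.7 to 20.4), 17.4% of 3L (14.8 to 20.3) and 21.1% of 3R (18.6 to 23.8). The X was thus both richer in narrow peaks and poorer in wide peaks than each reference arm, with intervals that did not overlap. Wide peaks did occur on the X. The widest, 3110 bp at 19388093 to 19391202, scored 988.18 and ranked 69 by score. The next by width were the peak of 2788 bp described above, a peak of 2781 bp at 11242907 to 11245687 (score 1355.54), one of 2663 bp at 11029860 to 11032522 (score 1521.59) and one of 2567 bp at 19530792 to 19533358 (score 1716.67). These 5 widest lay between 10 and 12 Mb or between 19 and 20 Mb.

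The narrowness ran through the whole X. From the left end to the centromere, the 5 sections had median widths of 864.5, 838.5, 802, 837.5 and 766.5 bp, while the 16 sections of 2L, 3L and 3R ran from 868.5 to 1150.5 bp. The 5 X sections thus lay below the narrowest reference section, the part of 2L from 20 Mb on, although the interval of that section (758 to 1007 bp) overlapped theirs. In finer bins of 1 Mb, the median width ran from 685.5 to 965.5 bp over the 22 complete X bins, against 788.5 to 1274.5 bp over the 72 reference bins. All 22 X bins lay below the median reference bin (1018 bp), and 6 lay below the narrowest. Score showed no such separation. Median scores of the X sections were 288, 299.6, 312, 317 and 365, against 215 to 337 in the reference sections. The X values lay above the median reference section (274), but the intervals were wide, and that of the last X section ran from 195 to 699.

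**Figure D2:**
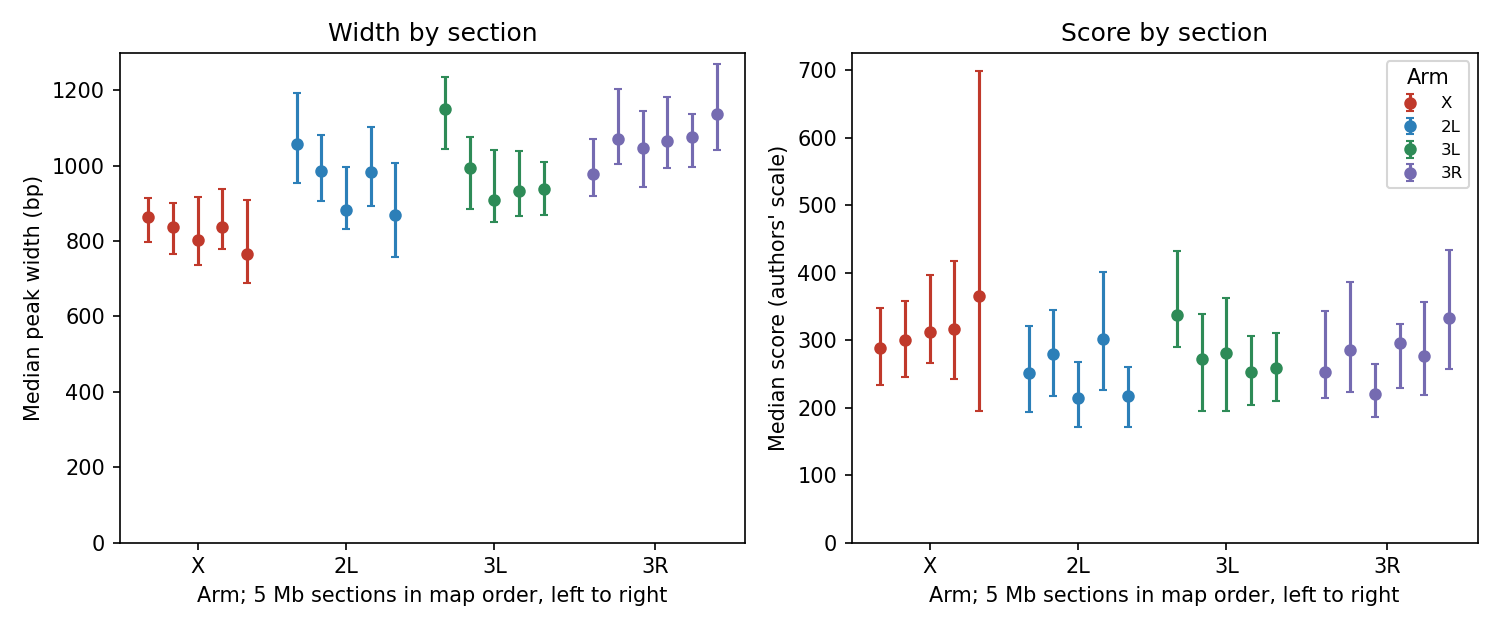
Median peak width in bp (left) and median score on the authors' scale (right) for each 5 Mb section of the X, 2L, 3L and 3R, in map order; bars are 95% order-statistic intervals over peaks. The X widths run from 766.5 to 864.5 bp, below the 868.5 to 1150.5 bp of the reference sections, while the X scores overlap the reference range.

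Wider peaks had higher scores on each arm, so the X was also compared at equal score. The reference peaks were divided into 10 equal groups by score, and each X peak was placed in the group of its score. The X median width was below that of each of 2L, 3L and 3R in 10 of the 10 groups. In the weakest group it was 479.5 bp on the X, against 627.5 bp on 2L, 653 bp on 3L and 706 bp on 3R. In the sixth group, with scores from 267 to 354, it was 802 bp on the X, against 1079 bp on 2L, 1085.5 bp on 3L and 1110 bp on 3R. In the strongest group it was 1358 bp on the X, against 1727.5 bp on 2L, 1564 bp on 3L and 1667.5 bp on 3R. The X widths were 71.6% to 86.4% of the pooled reference median over the 10 groups, with no steady trend from weak to strong.

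**Figure D3:**
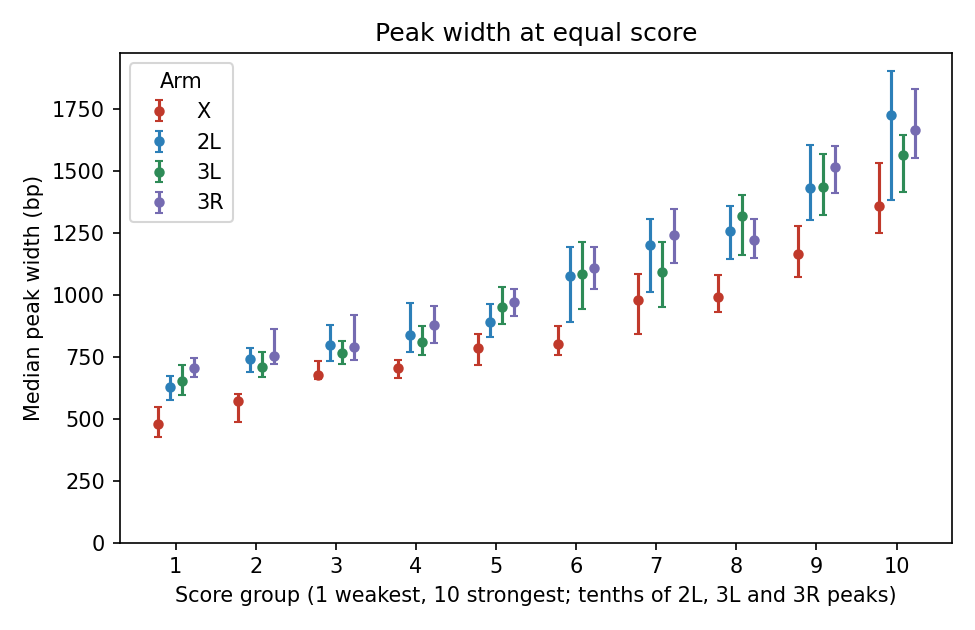
Median peak width in bp in 10 score groups, from the weakest (1) to the strongest (10), set on the 2L, 3L and 3R peaks, for X, 2L, 3L and 3R; bars are 95% order-statistic intervals over peaks. The X points lie lowest in each group, from 479.5 bp in group 1 to 1358 bp in group 10.

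Ranked among reference peaks of its score group, the median X peak stood at width percentile 21.5 (interval 17.7 to 23.9). For comparison, each reference arm was ranked in the same way among the other two, which gave 46.6 for 2L (41.0 to 51.1), 45.3 for 3L (41.8 to 49.1) and 56.1 for 3R (53.0 to 59.5). More than 1 in 2 X peaks, 401 of 731 or 54.9%, fell below width percentile 25 for their score, against 29.0% of 2L, 29.7% of 3L and 19.2% of 3R peaks. Only 43 X peaks (5.88%) lay above percentile 75, against 23.7% of 2L, 19.9% of 3L and 30.2% of 3R peaks. By section the X medians were 27.7, 21.7, 17.4, 21.5 and 9.96, against 37.6 to 62.8 in the reference sections. The X section next to the centromere had the lowest median. Its interval, 5.69 to 16.7, lay below those of the sections from 0 to 5 Mb (19.5 to 32.1) and from 15 to 20 Mb (17.8 to 27.5), and overlapped those from 5 to 10 Mb (15.8 to 27.6) and from 10 to 15 Mb (12.1 to 23.8). In the bin from 20 to 21 Mb, where the median score was highest, the median percentile was 7.32, the lowest of the 22 X bins.

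Among X peaks scoring at least the list median of 269.74, 7 were narrower than each reference peak of their score group (percentile 0), and the 5 of these with the highest scores are named here. The first, of 735 bp at 20106930 to 20107664, scored 951.38 and was narrower than each of the 247 reference peaks of its score group. Peaks of 664 bp at 15785854 to 15786517 (score 572.31), 594 bp at 12356722 to 12357315 (score 535.98), 616 bp at 6991833 to 6992448 (score 400.52) and 584 bp at 14978349 to 14978932 (score 359.11) followed. Those at 15785854, 12356722 and 14978349 had a neighbour with its midpoint 1.25, 0.54 and 1.11 kb away. Their narrowness may therefore depend on how peaks were divided. For the other named peaks the distance was 4.07 kb or more. The relation of score and width was also closer on the X. Spearman's rho across peaks was 0.730 to 0.878 in the 5 X sections and 0.610 to 0.729 in the 16 reference sections. Both values of a peak derive from the same reads, so rho is a description of this list.

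Neighbouring peaks on the X formed pairs more than longer clusters. A cluster is a set of peaks whose consecutive midpoints are at most 5 kb apart, and a run is a cluster of 4 or more. On the X, 58.3% of peaks had a neighbour within 5 kb (interval 54.6 to 61.9), against 60.0% on 2L (56.3 to 63.7), 61.7% on 3L (58.2 to 65.1) and 61.5% on 3R (58.3 to 64.5). Clusters of exactly 2 held 34.5% of X peaks (252 peaks, interval 31.0 to 38.0), against 29.1% on 2L (25.8 to 32.7), 29.4% on 3L (26.2 to 32.8) and 28.7% on 3R (25.9 to 31.6). Clusters of 3 held 12.7% of X peaks (10.4 to 15.4), against 15.0% on 2L (12.4 to 17.9), 19.4% on 3L (16.6 to 22.3) and 17.6% on 3R (15.2 to 20.1). Runs held 11.1% of X peaks (81 peaks, 8.90 to 13.6), against 15.9% on 2L (13.2 to 18.8), 12.9% on 3L (10.6 to 15.5) and 15.2% on 3R (13.1 to 17.6). The X had the largest share in pairs and the smallest in triples and runs, but apart from triples on 3L each interval overlapped that of the X. The order of the run shares also depended on how peaks were divided. With peaks at most 500 bp apart joined, runs held 9.13% on the X (interval 7.06 to 11.6) against 7.62% on 2L, 3L and 3R together.

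**Figure D4:**
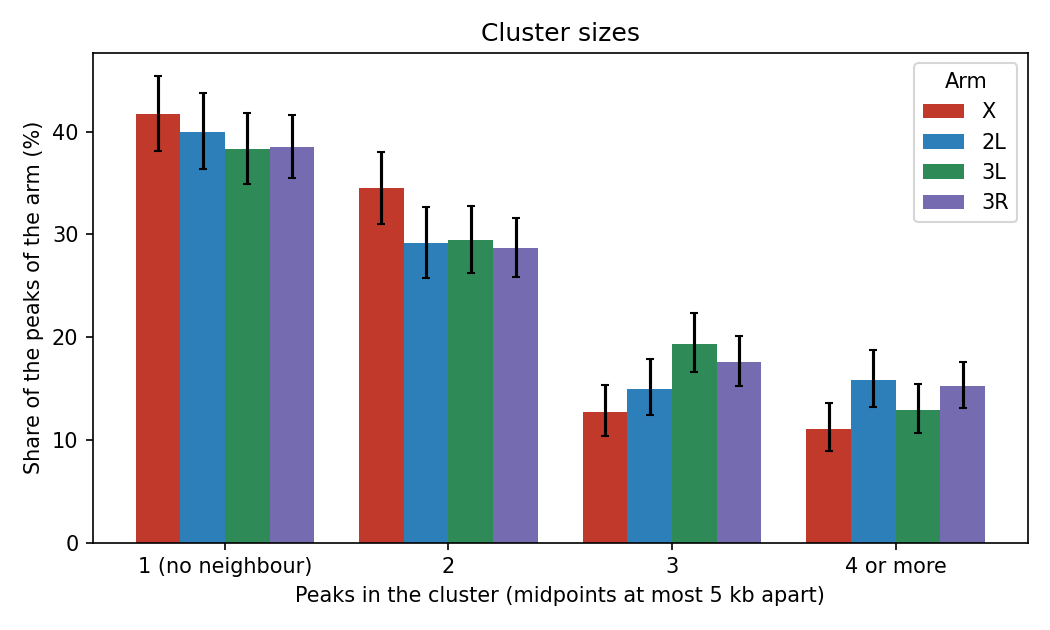
Share of the peaks of each arm (X, 2L, 3L, 3R) that lie in clusters of 1, 2, 3 or 4 and more peaks with consecutive midpoints at most 5 kb apart; bars start at 0 and error bars are 95% exact binomial intervals. The X has 34.5% of its peaks in pairs and 11.1% in runs.

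The X held 18 runs of 5.76 to 17.2 kb, with 2 in the section from 0 to 5 Mb, 5 from 5 to 10 Mb, 4 from 10 to 15 Mb, 7 from 15 to 20 Mb and 0 from 20 Mb on. The first section was also low, with 5.06% of its peaks in runs (interval 2.21 to 9.73), while the section from 15 to 20 Mb had 17.0% (12.0 to 23.1). Both values lay inside the range of the reference sections, 4.76% to 25.7%. The run with the most peaks on the 4 arms lay on the X at 15737813 to 15754966, with 7 peaks, whereas no run of 2L, 3L or 3R held more than 6. In map order its peaks scored 1019.16, 176.33, 694.24, 51.65, 102.35, 66.11 and 126.05. The 2 strong peaks thus stood on one side with a weaker one between them, and 4 weak ones followed within 3.64 kb on the other. The last 2 of these 7 peaks lay 108 bp apart from edge to edge, so the count of 7 depended on how peaks were divided. The next run, of 5 peaks at 11463802 to 11475279, had its strong peaks at the ends: they scored 860.04, 100.52, 108.87, 168.12 and 1471.79. The run at 19586809 to 19598938 was more even, with scores of 267.53, 202.16, 564.62, 240.89 and 688.80. At 16677144 to 16687000 the scores were 213.18, 378.34, 540.96, 174.26 and 118.07, and at 8791884 to 8801285 they were 499.65, 92.96, 361.23, 279.83 and 83.16. In 11 of the 18 runs the strongest peak was the first or the last. Runs were short (11 of 4 peaks, 6 of 5 and 1 of 7), so end peaks were a large part of most. The count was not set against that part or against runs of the reference arms. The run with the highest scores for its length was one of 4 peaks at 7824874 to 7830686, with a median of 744 and a highest score of 1660.66; it was named after its values were seen.

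X peaks in runs had a lower median score than X peaks with no neighbour within 5 kb. The median score was 202 in runs (interval 162 to 344, n = 81) and 373 for single peaks (318 to 437, n = 305), with intervals that overlapped. The same order was seen on 2L (222 in runs and 299 for single peaks), 3L (219 and 359) and 3R (193 and 364). Median widths on the X were 749 bp in runs and 870 bp for single peaks. For their score, X peaks were narrow in each spacing class, with median width percentiles of 22.8 in runs, 22.0 in triples, 22.4 in pairs and 19.5 for single peaks. The 62 X peaks more than 20 kb from any neighbour stood lowest, at percentile 13.4. Such peaks also stood lowest on each reference arm, at 33.3 on 2L, 27.0 on 3L and 41.2 on 3R. Single peaks of these arms stood at 41.7, 43.2 and 52.4.

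Closely abutting peaks were not more common on the X. Of 730 pairs of neighbouring X peaks, 63 (8.63%, interval 6.70 to 10.9) were at most 500 bp apart from edge to edge, against 10.7% on 2L, 11.1% on 3L and 10.2% on 3R. Measured from the outer edge of one peak to that of the other, these pairs had a median length of 1655 bp on the X, against 2081 bp on 2L, 1890.5 bp on 3L and 2016 bp on 3R. The closest X pair was 2 bp apart, at 11710178 to 11710758 (score 186.39) and 11710761 to 11711122 (score 72.67). Another lay 3 bp apart, where the narrow peak at 14978349 described above was followed by a peak at 14978936 to 14980560 that was 1625 bp wide and scored 799.39. At 4 bp apart, a peak at 13509966 to 13510883 scored 1442.67 and its neighbour at 13510888 to 13511275 scored 175.77. Neighbours on the X did not share their score level: Spearman's rho between the scores of neighbouring peaks was -0.016 over the 730 pairs, against 0.072 on 2L, 0.015 on 3L and 0.031 on 3R.

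Of the 5 most crowded 100 kb windows of the X, 3 lay between 15 and 20 Mb. The fullest, from 19500001 to 19600000, had 15 peaks with a median width of 785 bp and 2 of the 10 strongest X peaks. Next to each other at 15600001 to 15700000 and 15700001 to 15800000 were windows of 14 and 12 peaks, with median scores of 204 and 151 and median widths of 728 and 629 bp. Windows at 6100001 to 6200000 and 11700001 to 11800000 had 11 peaks apiece, with median scores of 429.9 and 308.

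Between such stretches lay long deserts. Stretches of 100 kb or more between neighbouring peaks numbered 62 on the X and made up 52.8% of its span, against 55.4% of 2L (60 deserts), 53.0% of 3L (67) and 47.7% of 3R (73). The share on the X thus lay inside the range of the reference arms. By section of the X it was 45.1%, 48.5%, 61.1% and 43.2% in the first 4 and 79.5% in the last. Over the 16 reference sections it ran from 42.4% to 66.5%, so only the last X section lay outside that range. The reference sections next to the centromere had 59.1% on 2L, 55.8% on 3L and 45.7% on 3R. The longest X desert, 503 kb, ran from 20396372 to 20899118. It was followed by 467 kb from 21942366 to 22409354, 433 kb from 11923325 to 12356721, 396 kb from 2633026 to 3028531 and 384 kb from 7231976 to 7615901. The first of these was bordered by a peak scoring 678.96 on the left and one scoring 92.33 on the right, and the second by peaks scoring 231.95 and 131.33. The next was bordered by scores of 426.68 and 535.98, the fourth by 56.70 and 267.03, and the fifth by 54.27 and 400.95. The 120 X peaks next to a desert had a median score of 360.3, against 297 for the other 611. The order was the same on 2L (282 next to a desert and 239.8 elsewhere) and 3R (349 and 262), and the opposite on 3L (251 and 283).

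The deserts divided the X into 63 blocks with a median of 8 peaks, against 7 on 2L, 8.5 on 3L and 9 on 3R. Within blocks the X held 69.1 peaks per Mb, against 70.1 on 2L, 69.9 on 3L and 68.0 on 3R. Density outside deserts was therefore nearly the same on the 4 arms. The largest X block spanned 1558809 to 2342478 and held 44 peaks with a median score of 313 and a median width of 877.5 bp. The block from 16164684 to 16863002 held 42 peaks with a median score of 381, and that from 11218869 to 11799617 held 42 with a median score of 314. The block from 15591032 to 15999215, which holds the run of 7, had 38 peaks in 408 kb. Their median score was 217 and their median width 665.5 bp.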

How the data were processed

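Per the submitters' processing notes, reads were aligned with Bowtie to BDGP5, and per the file header peaks were called with MACS. The calling threshold, the use of the input and the way replicates were joined are not stated in the labels or the file. The score of each peak is the value the authors deposited. Its scale is not named, so it was used only to rank, group and compare peaks within the list, and no ratios were formed. Read depth is unknown. Starts were taken to count from 0 and are printed counting from 1.

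All X peaks were used, with no filter. Width was end minus start, and distances were taken between midpoints unless edges are named. Medians carry 95% order-statistic intervals, shares exact binomial (Clopper-Pearson) and densities exact Poisson intervals. Width percentiles were taken within 10 score groups, ties counting as the middle rank. No hypothesis test was run. The functions for runs, deserts, neighbours and joining were tested on made-up peaks. Those for width percentiles and median intervals were tested on peaks resampled from the reference arms. The regions named follow a written rule: the 10 highest scores, the strongest peak of each section, the 5 widest, the 5 lowest width percentiles at or above the list median score (ties by higher score), the 3 weakest, 5 runs, 5 deserts, 5 windows, the extreme 1 Mb bins and the 3 closest pairs. The first and last peaks, the blocks and the sections of other arms were added after the data had been seen. The members, measures and lists were chosen with earlier results of these data known. Genes and sequence were not analysed here, since no reference of the BDGP5 build was used. Computations used Python 3.11.15, NumPy 2.4.6, SciPy 1.17.1, pandas 2.3.3 and Matplotlib 3.10.9.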

Additional observations from a re-analysis of the deposited data

Results flagged for a closer look

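Another 4 Sin3A peaks lay on XHet, heterochromatic sequence assigned to the X and kept apart from it in this build. They are listed because the comparisons leave this sequence out. They spanned positions 60769 to 61632 (864 bp, score 379.21), 75035 to 75466 (432 bp, score 81.40), 76168 to 76597 (430 bp, score 160.03) and 84599 to 85187 (589 bp, score 413.57).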

How the results depend on the processing

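Of 52 alternatives, 34 left the value inside its 95% interval or, for the count of sections, within 1.5 times. For the desert share, the interval was a binomial one that counted stretches of 100 kb as independent. They are not, so for deserts this sorting is rough. The X minus reference differences in median score and width kept their signs under each alternative run for them, but among peaks at or above the list median score the interval of the score difference (38.2) ran from -10.8 to 85.1 and included 0. The median X width percentile stayed between 19.5 and 23.5 under all 9 alternatives run for it. The X minus reference median width, -172 bp as deposited, was -252 bp among peaks at or above the list median score, -229 bp with peaks at most 500 bp apart joined and -130 bp without 3R in the reference. In an analysis added after seeing the data, 5 of 5 X sections lay below every reference section in width. That count was 4 of 5 with close peaks joined, 4 of 6 with sections of 4 Mb and 3 of 3 with sections of 10 Mb. Values that follow from their definitions moved most. Density was 17.9 per Mb on the X against 16.9 on the reference arms at or above the median score, and 29.8 against 29.9 with close peaks joined. Adding 2R to the reference raised the reference density from 33.4 to 34.6 per Mb, against 32.6 on the X. The difference in median width was -172 bp with 2R as well. The share with a neighbour was 25.1% against 29.1% at or above the median score, 48.2% against 49.5% with close peaks joined, 23.5% against 26.3% within 2 kb, 80.4% against 80.4% within 10 kb and 64.8% against 68.4% within 5 kb between edges. Runs held 0% against 0.980% at or above the median score, 1.09% against 0.324% within 2 kb, 37.1% against 42.0% within 10 kb and 23.8% against 32.1% with 3 or more peaks. Deserts took 66.9% against 64.6% of the span at or above the median score, 70.5% against 69.9% from 50 kb and 23.6% against 25.4% from 200 kb. The run share of the X thus lay above the reference within 2 kb and with close peaks joined. Few peaks lay in runs within 2 kb (X interval 0.474% to 2.14%). With close peaks joined, the X interval (7.06% to 11.6%) included the reference value, so neither order is firm. No paired analysis was possible because both replicates are joined in 1 list.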
